A study of Mus musculus with 48 samples.

Results

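The cholesterol and fatty acid synthesis genes described here are 36 genes chosen by symbol, from a list made with earlier results of these data in view and without a cut on any measured value. All 36 were found among the 34183 gene rows of each deposited table, and all 36 passed the filter on low counts in every fit. They comprised 18 enzymes of sterol synthesis, 7 regulators of sterol sensing or handlers of sterol, and 11 genes of fatty acid and lipid synthesis.

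RNA was sequenced from neuron-enriched cultures of dorsal root ganglia (DRG, the ganglia that hold the cell bodies of sensory neurons) of adult wildtype mice. The 48 libraries fall in 12 groups of 4, of which 11 were transfected right after isolation, kept in Neurobasal-A medium with B27 and taken at 42 h. The comparisons ask which genes follow the knockdown or overexpression of factors that respond to axon injury. Of the groups, 7 received a pool of siRNAs against 1 target, namely siAtf4, siAtf3, siJun, siStat3, siKlf6, siRest or siAlyref, and were compared with a control pool, siCONTROL. Cultures given synthetic mRNA for Atf4 and Cebpg together, or for Atf4, were compared with cultures given GFP mRNA. The siCONTROL cultures were also compared with untransfected cells at 0 h, called time0 here, a comparison in which the hours in culture and the transfection cannot be told apart. Each target had 1 pool, and the labels give neither the animals' age nor whether replicates were separate animals or cultures. The p-values therefore measure the spread between these libraries, which may be technical.

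Cells make cholesterol from acetyl-CoA through mevalonate, isoprenoids, squalene and lanosterol. When sterol in the endoplasmic reticulum is low, the escort protein Scap carries the SREBP precursors to the Golgi, where they are cut to release transcription factors for sterol and fatty acid genes, whereas Insig proteins hold the complex back when sterol is ample. Growing axons need new membrane, and satellite glia and Schwann cells of the ganglion are also active makers of lipid.

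Levels are given in CPM, the deposited estimated count of a gene scaled to a common library total. The deposited values follow the inverse of transcript length, so levels of different genes are per length. Column totals were 1539198 to 6621566 counts, the lowest being 1 siKlf6 library. A gene was called changed where the adjusted p of the edgeR quasi-likelihood test, with Benjamini-Hochberg adjustment over all genes tested, was at most 0.05. Each siRNA target stood at 16.8% to 36.3% of siCONTROL in its own group, Atf4 at 95.7 ± 22.8 CPM in siAtf4 and 563 ± 31.3 CPM in siCONTROL (SD, n = 4 each). In these bulk cultures fewer cells of a type and less RNA per cell cannot be told apart. Neuronal markers were present in every group, at summed levels of 11244 to 13354 CPM over 8 genes in siCONTROL. Markers of satellite glia, at 747 to 905 CPM over 9 genes, and of Schwann cells and myelin, at 1533 to 1800 CPM over 11 genes, were also present in siCONTROL. Of 6 adipocyte markers, Adipoq, Plin1, Lep and Retn were at 0 in all siCONTROL libraries.

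RefSeq promoter windows of the mouse build GRCm38.p6, from 250 bases before to 50 after each start, were found for 29 members. None was found for Fdps, Fdft1, Sqle, Stard4, Scd1, Scd2 and Fads1. SREBP acts at sterol response elements together with NF-Y, which binds CCAAT boxes, so both were searched on both strands. The letters CCAAT were present in 22 of 29 members, and in 14 of 15 sterol enzymes with a window, against 37.4% of all 32851 windows in the table. They were in 8 of the 10 members with a window that fell with siAtf4, described later, and in 14 of the other 19. The sterol response element core TCACCCCAC with up to 1 mismatch was present in 5 of 29 members, against 9.82% of all windows. Without a mismatch it was present in Hmgcs1 and in 0.551% of all windows. The E-box CACGTG was present in 6 of 29 members, against 7.15% of all windows, and TGATGNAAT, the composite element of ATF and C/EBP dimers, in 0 of 29 members, against 0.965% of all windows. Where a gene had several windows, a match in any of them was counted, so its chance of a match is larger than that of a single window.

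The 180 bases before the RefSeq start are shown for 3 mevalonate pathway enzymes that were lower with siAtf4, picked after their values were seen. Capitals mark CCAAT on either strand (ATTGG on the other) and, in Hmgcs1, the TCACCCCAC core. A match is a description of letters, not a binding site. The stretches of Mvd and Hmgcs1 each hold 2 CCAAT boxes and that of Mvk, which lies between Mvk and its opposite-strand neighbour Mmab, holds 5. All read 5′ to 3′ on the strand of the gene, from chr8:122443423-122443602 (minus strand), chr13:119690171-119690350 (plus strand) and chr5:114444089-114444268 (plus strand).
Mvd: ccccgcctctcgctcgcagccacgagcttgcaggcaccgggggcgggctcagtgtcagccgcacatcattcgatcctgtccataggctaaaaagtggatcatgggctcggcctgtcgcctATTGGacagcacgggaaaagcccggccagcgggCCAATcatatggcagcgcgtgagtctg
Hmgcs1: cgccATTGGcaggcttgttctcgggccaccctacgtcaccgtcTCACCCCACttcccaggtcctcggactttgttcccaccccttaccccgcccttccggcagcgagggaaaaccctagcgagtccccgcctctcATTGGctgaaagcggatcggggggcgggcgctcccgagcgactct
Mvk: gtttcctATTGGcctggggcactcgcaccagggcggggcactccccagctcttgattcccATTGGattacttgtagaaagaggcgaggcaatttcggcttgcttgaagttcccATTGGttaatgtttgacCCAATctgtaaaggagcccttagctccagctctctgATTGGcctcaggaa

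Within siCONTROL the most abundant member was Scd2, the stearoyl-CoA desaturase of the nervous system, at 679 ± 115 CPM. Acly, which makes cytosolic acetyl-CoA from citrate, followed at 443 ± 13.6 CPM, and the first of the sterol enzymes were Hmgcs1 at 375 ± 34.3, Fdps at 372 ± 42.9 and Sqle at 337 ± 18.7 CPM (SD, n = 4). Hmgcs1 and Fdps differed by less than their spread. At the low end Stard4 stood at 33.6 ± 4.49, Lss at 24.3 ± 2.13 and Elovl6 at 23.4 ± 5.21 CPM, the last 2 of these within 1 SD of each other. The coefficient of variation within a group had a median of 10.6% over the members and groups. Scd1 and Scd2 are close paralogues and Acat2 has a close paralogue in mouse, so their levels depend on how reads were shared between copies.

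In cultures depleted of Atf4, the effector of the integrated stress response, enzymes of the mevalonate pathway and of sterol synthesis were lower. Of the 36 members 13 fell with siAtf4, where 4.17% of all genes tested fell, and 0 rose, where 2.74% rose. The quasi-likelihood test gave 23 members an unadjusted p under 0.05, as it did 2756 of all 14876 genes tested. DESeq2 also called 0 members higher. The 13 were 9 of 18 sterol enzymes, Stard4 among the 7 regulators and handlers, and 3 of 11 fatty acid and lipid genes. The median log2 fold change was -0.42 over the sterol enzymes and -0.25 over all members, beside -0.00132 over all genes tested. All 4 siAtf4 libraries lay below all 4 siCONTROL libraries in 16 members, an arrangement found in 5.94% of all genes tested. With the replicate number as a block 22 members fell, with Srebf1, Srebf2, Fads1, Fasn, Scd1 and Scd2 among those added. The numbers were not taken to pair these libraries, where the lowest same-number correlation was 0.0710.

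The summed level of the 18 sterol enzymes was 1855 to 1986 CPM in siAtf4 and 2326 to 2744 CPM in siCONTROL. Every siAtf4 library was below every siCONTROL library, and below the lowest library of the other 6 knockdowns, a siStat3 library at 2183 CPM. The fatty acid and lipid genes overlapped, at 1629 to 1819 CPM in siAtf4 and 1759 to 2173 CPM in siCONTROL. Set side by side by replicate number, siAtf4 was the lower each time. In number order the sums were 1629, 1678, 1819 and 1757 CPM in siAtf4 and 1847, 1759, 2173 and 2049 CPM in siCONTROL.

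**Figure D1:**
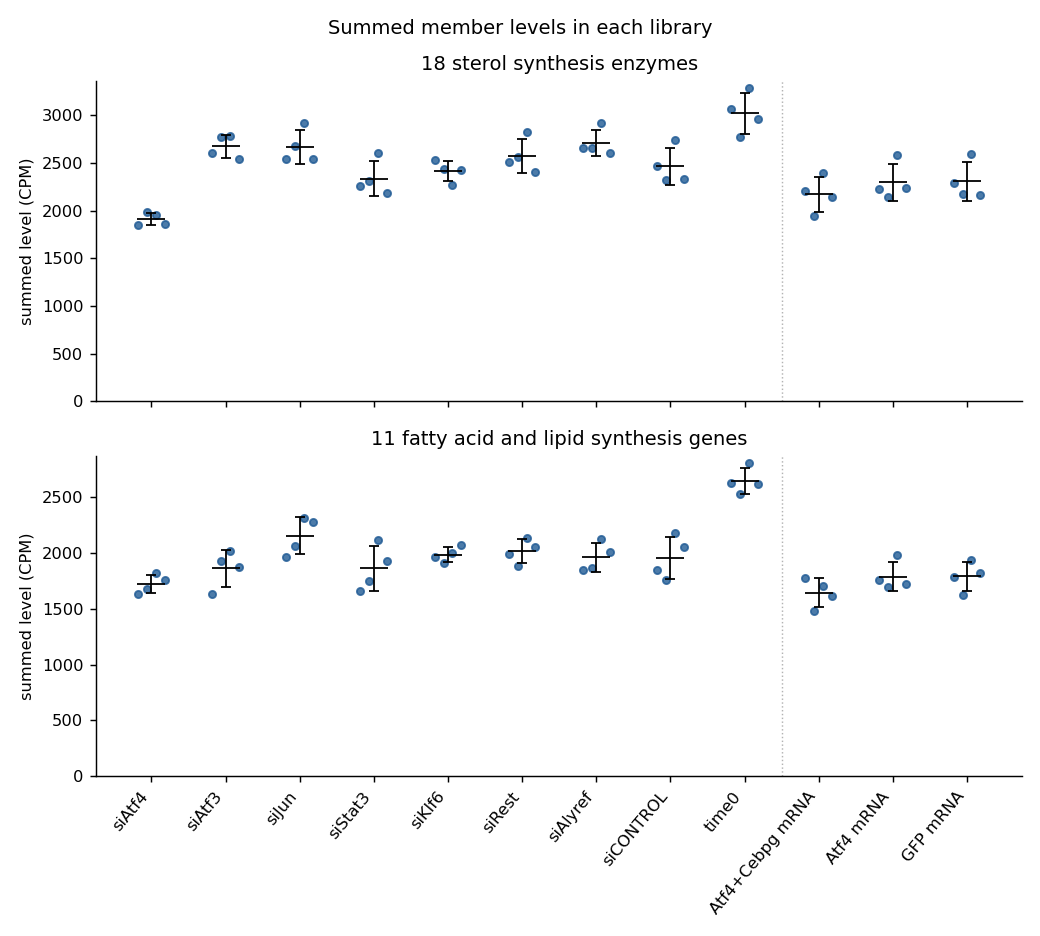
Summed level in CPM of the 18 sterol synthesis enzymes (top) and the 11 fatty acid and lipid synthesis genes (bottom) in each library (points), with the group mean and SD (bars, n = 4). The siAtf4 sterol sums lie at 1855 to 1986 CPM, under all other libraries of the siRNA groups, and the time0 sums are the highest of the plot in both panels as group means.

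The fall ran along the mevalonate pathway. Mvd, the mevalonate diphosphate decarboxylase, had 33.4, 40.1, 31.4 and 35.2 CPM in siAtf4, against 62.9, 57.9, 61.1 and 52.0 CPM in siCONTROL. The groups were well apart, and the log2 fold change was -0.76 ± 0.11 (SE), with an adjusted p of 3.49e-05. Hmgcs1, which condenses acetyl-CoA units into HMG-CoA ahead of mevalonate, had 273, 269, 272 and 279 CPM in siAtf4, against 379, 346, 422 and 354 CPM in siCONTROL. The siAtf4 libraries were close together and all lower, with a log2 fold change of -0.48 ± 0.08 at an adjusted p of 9.13e-05.

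Other enzymes before squalene fell by similar amounts. Acat2, the cytosolic thiolase that starts the pathway, changed by -0.52 on the log2 scale, Mvk, the mevalonate kinase, by -0.52, and Fdps, the farnesyl diphosphate synthase, by -0.49. Pmvk, the phosphomevalonate kinase, Idi1, the isopentenyl diphosphate isomerase, and Fdft1, the squalene synthase, did not pass the test, with log2 fold changes of -0.25, -0.43 and -0.16.

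Among the enzymes that act on squalene and the sterol ring, Msmo1, which oxidises the methyl groups at carbon C4, fell furthest. It had 141, 178, 168 and 166 CPM in siAtf4, against 236, 230, 282 and 210 CPM in siCONTROL, with no overlap, a log2 fold change of -0.58 ± 0.10 at an adjusted p of 0.000175. Sqle, the squalene epoxidase, fell by 0.25, Nsdhl, which acts after Msmo1, by 0.42 and Sc5d, a sterol desaturase, by 0.44 on the log2 scale. The remaining 6 of this stretch, Lss, Cyp51, Tm7sf2, Hsd17b7, Ebp and Dhcr7, did not pass, with log2 fold changes between -0.56 in Lss and 0.05 in Hsd17b7. In Lss 1 siAtf4 library stood at 23.2 CPM and the others at 14.1 to 15.5 CPM.

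Stard4, a carrier that moves cholesterol between membranes, had 21.9, 17.2, 16.8 and 23.9 CPM in siAtf4, against 31.4, 35.5, 38.7 and 28.5 CPM in siCONTROL. The groups did not overlap, and the log2 fold change was -0.77 ± 0.16 with an adjusted p of 0.00253. The other regulators and handlers did not pass the test, with log2 fold changes of -0.09 in the escort Scap, -0.23 in Insig2 and 0.21 in Abca1. Insig1, whose protein retains the SREBP complex, stood at 146 ± 10.7 CPM in siAtf4 and 147 ± 10.9 CPM in siCONTROL, a log2 fold change of -0.04 ± 0.07 with an adjusted p of 0.862. Srebf2, the SREBP gene tied most closely to sterol synthesis, stood at 114 ± 4.31 CPM in siAtf4 and 130 ± 4.47 CPM in siCONTROL, without overlap, with a log2 fold change of -0.22 ± 0.07 at an adjusted p of 0.0528. DESeq2 and edgeR with RLE size factors both called Srebf2 lower. Srebf1, which encodes the SREBP of fatty acid genes, had 60.3 ± 12.5 CPM in siAtf4 and 75.9 ± 20.0 CPM in siCONTROL, overlapping, with an adjusted p of 0.505.

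In fatty acid metabolism the 3 called genes activate acids or build glycerolipid. Acss2, which makes acetyl-CoA from acetate, had 42.2, 54.1, 50.01 and 44.8 CPM in siAtf4, against 71.1, 83.1, 78.9 and 63.0 CPM in siCONTROL, with a log2 fold change of -0.66 ± 0.10 at an adjusted p of 6.97e-05. Acsl3, a long-chain acyl-CoA synthetase, had 39.3, 50.9, 44.4 and 44.5 CPM in siAtf4, against 65.1, 62.1, 73.6 and 73.7 CPM in siCONTROL, with a log2 fold change of -0.64 ± 0.13 at an adjusted p of 0.00200. In both genes every siAtf4 library was the lower. Lpin1, a phosphatidate phosphatase, fell by 0.37 on the log2 scale with an adjusted p of 0.0480. The core synthesis enzymes did not pass the test, with log2 fold changes of -0.03 in Acly, 0.03 in Acaca and -0.25 in Fasn, nor did the desaturases and elongase, at -0.32 in Scd1, -0.22 in Scd2, -0.20 in Fads1, -0.11 in Fads2 and -0.14 in Elovl6.

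**Figure D2:**
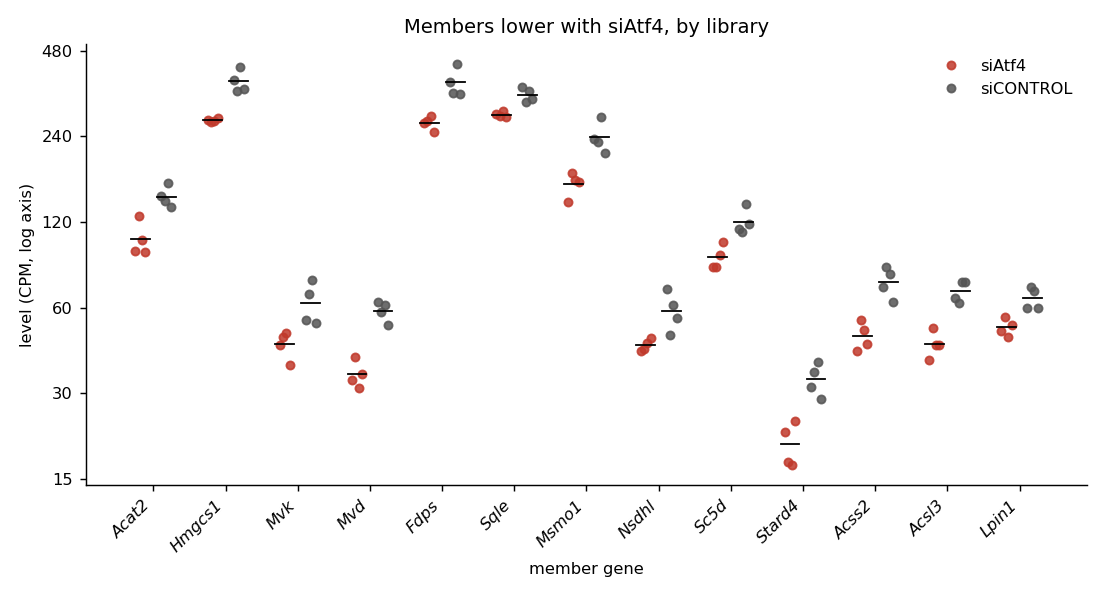
Level in CPM (log axis) of each of the 13 members called lower with siAtf4, by library (points), with siAtf4 left of siCONTROL and the group mean as a line. In all 13 the siAtf4 points lie below the siCONTROL points, as for Mvd at 31.4 to 40.1 CPM in siAtf4 and 52.0 to 62.9 CPM in siCONTROL.

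Of the 13 calls, 4 did not hold in every fit with 1 library left out. Lpin1 lost its call without any of 7 of the 8 libraries, all but siCONTROL replicate 4, with an adjusted p of up to 0.159. Mvk lost it without siCONTROL replicate 2 or 3 or siAtf4 replicate 4 (up to 0.0733), and Sqle and Nsdhl without siCONTROL replicate 1 (0.0578 and 0.0637). Summed satellite glia markers were 636 to 763 CPM in siAtf4 and 747 to 905 CPM in siCONTROL, with 0 of 9 lower by the test and 1 higher. Of these 9, 8 had a negative log2 fold change and 1 a positive one, with a median of -0.25. Neuronal markers were 12280 to 13336 CPM in siAtf4 and 11244 to 13354 CPM in siCONTROL, with 2 of 8 higher and a median log2 fold change of 0.06. Schwann cell and myelin markers were 1648 to 1829 CPM in siAtf4 and 1533 to 1800 CPM in siCONTROL, with 0 of 10 tested called. The part of cell makeup in the result was not tested.

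Few genes of other lipid lists were called with siAtf4, and the difference between lists was not tested. Genes of the isoprenoid branch, LXR targets, and phospholipid and triglyceride synthesis had 0 of 9, 0 of 8 and 0 of 18 called, where 4.17% of all genes fell and 2.74% rose. Their median log2 fold changes were -0.08, -0.12 and -0.21, beside -0.00132 over all genes tested. Among the phospholipid and triglyceride genes 15 of 18 had a negative log2 fold change and 3 a positive one. In fatty acid oxidation 2 of 13 fell, Hadh by 0.37 and Acadvl by 0.32 on the log2 scale, and 0 rose. In fatty acid elongation and activation 1 of 19 fell, Acsl1 by 0.31, and 1 rose, Hacd3 by 0.29. In sterol uptake, storage and transport 2 of 13 fell and 0 rose, with Vldlr, a lipoprotein receptor, at 10.5 CPM in siAtf4 and 27.0 CPM in siCONTROL, a log2 fold change of -1.39. Of 12 integrated stress response genes, a list that also holds Vldlr, 10 fell, with Chac1 at -2.72 and Mthfd2 at -1.75.

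A contrast of siAtf4 with the mean of the other 6 knockdowns uses no control library. Against them 19 members fell, where 9.28% of all genes tested fell, and 1 rose, where 10.5% rose. The 19 were 14 of 18 sterol enzymes, Srebf2, Stard4, Acss2, Acsl3 and Lpin1. The largest were Stard4 at -0.79, Acss2 at -0.77, Mvd at -0.65, Dhcr7 at -0.62 and Lss at -0.59 on the log2 scale. The gene that rose was Insig1, at 146 ± 10.7 CPM in siAtf4 and 132 ± 22.5 CPM over the 24 other libraries, with a log2 fold change of 0.17 ± 0.05 at an adjusted p of 0.0291. Without siAtf4 replicate 3 its adjusted p was 0.198. In siCONTROL, outside this contrast, Insig1 stood at 147 ± 10.9 CPM. Against siCONTROL, Insig1 was called lower in siAtf3 and siJun, and Dhcr7 higher in siAtf3 and siAlyref. Those groups are part of the mean used here. Other calls lost without 1 library were Cyp51 (siAtf4 replicate 1 or 4), Lss (siAtf4 replicate 1, 3 or 4), Fdft1 and Mvk (siAtf4 replicate 4) and Lpin1 (siAtf4 replicate 1, 3 or 4, or siRest replicate 2), with adjusted p up to 0.164. Srebf1 was not called, at an adjusted p of 0.0749, but DESeq2 called it lower, as it did Pmvk and Scd1. Of 8 neuronal markers 4 were higher and 0 lower in this contrast. Of 9 satellite glia markers 1 was higher and 0 lower. Their median log2 fold change was -0.22, with 6 negative and 3 positive. The part of these markers in the contrast was not tested.

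Atf3, another ATF family factor, is a stress- and injury-induced regulator. With siAtf3, 1 member rose, where 4% of all genes tested rose, and 2 fell, where 7.49% fell. Fads1, the delta-5 fatty acid desaturase, had 44.4, 46.1, 58.3 and 52.3 CPM in siAtf3, against 97.6, 80.7, 101 and 99.0 CPM in siCONTROL. All siAtf3 libraries were far lower, with a log2 fold change of -0.98 ± 0.09 at an adjusted p of 1.17e-08. Insig1 had 91.1, 106, 115 and 98.8 CPM in siAtf3, against 149, 145, 160 and 134 CPM in siCONTROL, again without overlap, with a log2 fold change of -0.59 ± 0.07 at an adjusted p of 8.24e-07. Dhcr7, the reductase of the last step to cholesterol in 1 branch, had 112, 113, 114 and 126 CPM in siAtf3, against 67.6, 53.3, 71.5 and 77.5 CPM in siCONTROL, with a log2 fold change of 0.72 ± 0.13 at an adjusted p of 0.000164. Beside these, the summed neuronal markers were 9406 to 11023 CPM in siAtf3 and 11244 to 13354 CPM in siCONTROL, with 6 of 8 lower by the test, and the Schwann cell and myelin markers 1209 to 1472 CPM in siAtf3 and 1533 to 1800 CPM in siCONTROL, with 1 of 10 tested lower. Their part in the result was not tested. Outside the members, 3 of 13 genes of sterol uptake, storage and transport rose and 0 fell. Vldlr had 40.0 CPM in siAtf3 and 27.0 CPM in siCONTROL, a log2 fold change of 0.49, and Soat1, which esterifies cholesterol, had one of 0.64.

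The direct contrast of siAtf4 with siAtf3 shows where the knockdowns differed. In siAtf4 17 members were lower, where 10.7% of all genes were lower, and 2 were higher, where 12.1% were higher. Dhcr7, at 53.0 ± 4.36 CPM in siAtf4 and 116 ± 6.81 CPM in siAtf3, had a log2 fold change of -1.08, and Lss, the lanosterol synthase, at 16.8 ± 4.32 CPM in siAtf4 and 38.8 ± 6.30 CPM in siAtf3, one of -1.16. Stard4 at -0.97, Acss2 at -0.91 and Mvd at -0.90 completed the largest falls. The 2 higher genes were Insig1, at 0.56 ± 0.07, and Fads1, at 0.78 ± 0.09 on the log2 scale. Srebf2 was lower by 0.27 with an adjusted p of 0.00438, and Srebf1 did not pass, at an adjusted p of 0.0691. Acsl3 lost its call (adjusted p 0.0449) without siAtf4 replicate 1, 3 or 4 or siAtf3 replicate 2, 3 or 4, up to 0.150. Neuronal markers were 12280 to 13336 CPM in siAtf4 and 9406 to 11023 CPM in siAtf3, with 6 of 8 higher by the test. Schwann cell and myelin markers were 1648 to 1829 CPM in siAtf4 and 1209 to 1472 CPM in siAtf3, without overlap, with 1 of 10 tested higher and 1 lower. Their part in the differences was not tested. Replicate numbers pair these libraries, and with the replicate as a block 23 members were lower, 6 more than without it, Srebf1 among them.

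The other knockdowns touched few members. With siJun 1 member fell and 0 rose, where 7.78% of all genes changed in either direction. That member was Insig1, with 113, 108, 129 and 114 CPM in siJun, below all siCONTROL libraries, and a log2 fold change of -0.38 ± 0.07 with an adjusted p of 0.000777. Replicate numbers pair siJun with siCONTROL, and with the replicate block Fdft1, Fdps and Scd2 were called higher, 3 where DESeq2 and the fit without the block called 0.

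With siStat3 2 members fell and 0 rose, where 3.03% of all genes changed. Msmo1 had 175, 161, 199 and 191 CPM in siStat3, against 236, 230, 282 and 210 CPM in siCONTROL, with a log2 fold change of -0.41 ± 0.10 at an adjusted p of 0.0119. Fasn, the fatty acid synthase, had 91.7, 116, 126 and 116 CPM in siStat3, against 167, 131, 143 and 136 CPM in siCONTROL, with a log2 fold change of -0.37 ± 0.09 at an adjusted p of 0.0104. Neither gene overlapped between the groups. Fasn lost its call without siStat3 replicate 1 or siCONTROL replicate 1 (adjusted p up to 0.0653), Msmo1 without siStat3 replicate 2 or siCONTROL replicate 3 (up to 0.0646), and both in a fit of the 2 groups alone. With the replicate block, which pairs these libraries, Insig1 was also lower, and DESeq2 called it too.

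With siAlyref, against the mRNA export adaptor, 2 members rose and 0 fell, where 4.26% of all genes changed. Dhcr7 had 98.3, 89.0, 107 and 85.6 CPM in siAlyref, against 67.6, 53.3, 71.5 and 77.5 CPM in siCONTROL, without overlap, with a log2 fold change of 0.49 ± 0.13 at an adjusted p of 0.0224. Sqle had 395, 385, 422 and 376 CPM in siAlyref, against 357, 317, 347 and 325 CPM in siCONTROL, with a log2 fold change of 0.22 ± 0.06 at an adjusted p of 0.0496. Sqle lost its call without any of 7 of the 8 libraries, all but siCONTROL replicate 1 (adjusted p up to 0.168), and Dhcr7 without siCONTROL replicate 2 or siAlyref replicate 1 or 3 (up to 0.107). Both were lost in a fit of the 2 groups alone.

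With siKlf6 and siRest the quasi-likelihood test called 0 of 36 members, where 1.85% and 0.202% of all genes changed. At an unadjusted p under 0.05 there were 5 of 36 members for siKlf6 and 3 for siRest. Of all 14876 genes tested there were 1783 for siKlf6 and 908 for siRest. DESeq2 also called 0 members in each. All 7 knockdowns were set against the same 4 siCONTROL libraries, so their values are not independent of one another.

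**Figure D3:**
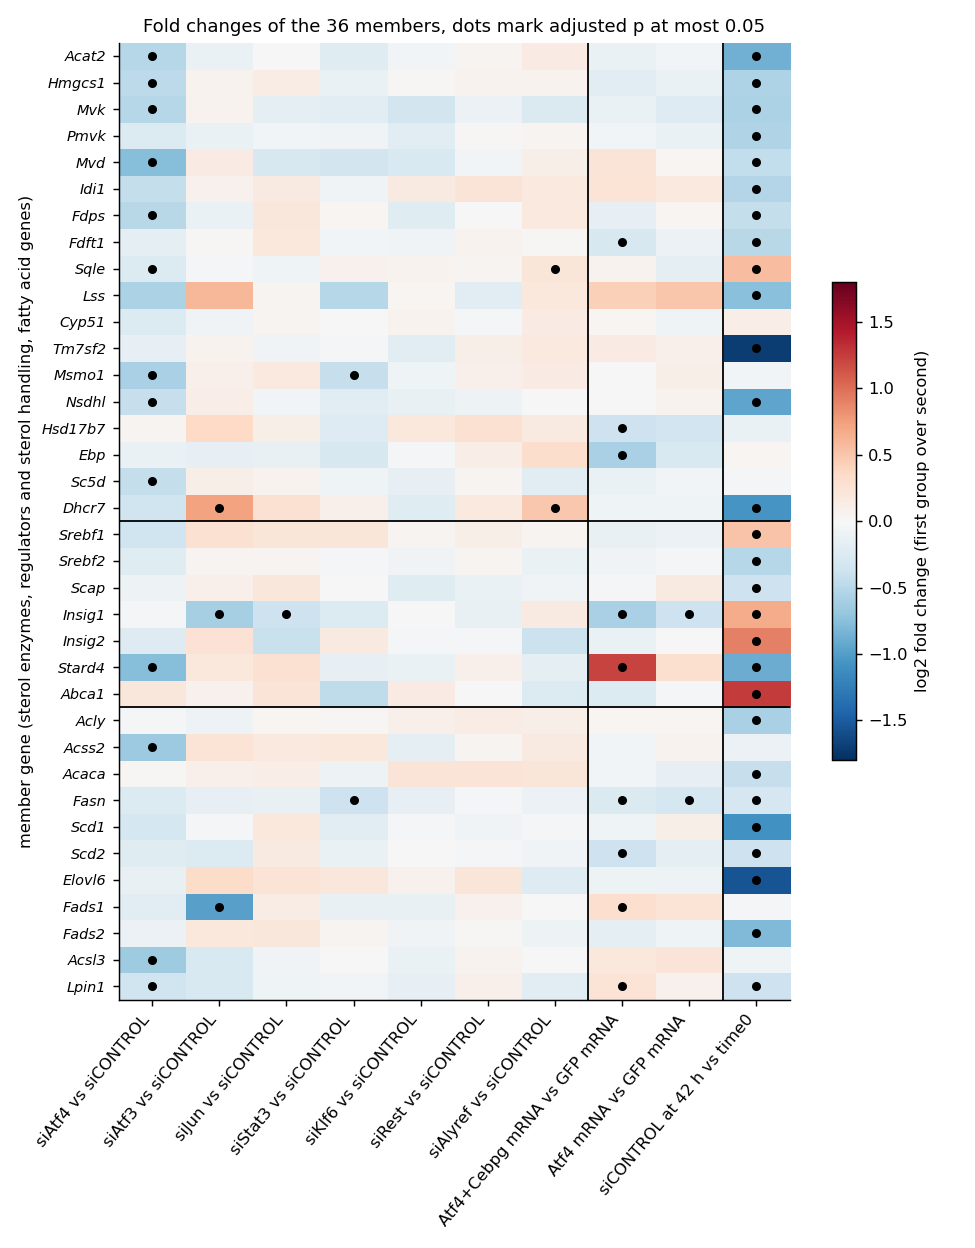
Log2 fold change of each member (rows, grouped by role) in 10 comparisons (columns), red where the first-named group was higher and blue where it was lower, with a dot where the adjusted p was at most 0.05. The siAtf4 column is blue in 33 of 36 members, and the siKlf6 and siRest columns hold 0 dots.

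With Atf4 mRNA the quasi-likelihood test and DESeq2 called 0 of 18 sterol enzymes. By the quasi-likelihood test 4 of the 18 had an unadjusted p under 0.05, as had 2690 of all 13857 genes tested. Atf4 stood at 14390 ± 3932 CPM with Atf4 mRNA and 635 ± 43.1 CPM with GFP mRNA, a level that includes the transfected RNA. With Atf4 mRNA 2 members fell and 0 rose, where 4.84% of all genes changed in either direction, and DESeq2 also called 0 higher. At an unadjusted p under 0.05 there were 8 of 36 members, beside the 2690 of 13857 genes given above. Insig1 had 121, 97.7, 126 and 107 CPM with Atf4 mRNA, against 150, 131, 158 and 127 CPM with GFP mRNA, without overlap, with a log2 fold change of -0.37 ± 0.10 at an adjusted p of 0.0425. Fasn had 106, 115, 113 and 114 CPM with Atf4 mRNA, against 126, 154, 133 and 128 CPM with GFP mRNA, also without overlap, with a log2 fold change of -0.31 ± 0.08 at an adjusted p of 0.0366. Both calls were lost without a filter on low counts and in a fit of the 2 groups alone. Fasn also lost its call without any of 7 of the 8 libraries (all but GFP mRNA replicate 4, adjusted p up to 0.0902), and Insig1 without any of 6 (all but GFP mRNA replicate 4 and Atf4 mRNA replicate 3, up to 0.120). Mvd, Srebf1 and Srebf2 had log2 fold changes of 0.03 ± 0.12, -0.11 ± 0.18 and -0.04 ± 0.07 and did not pass. Satellite glia markers were 503 to 590 CPM with Atf4 mRNA and 604 to 676 CPM with GFP mRNA, with 0 of 8 tested higher and 1 lower. Endothelial and mural markers were 269 to 325 CPM with Atf4 mRNA and 206 to 278 CPM with GFP mRNA, with 1 of 8 higher and 0 lower. Their part in the result was not tested.

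Stard4 was higher and Insig1 lower with Atf4 and Cebpg mRNA together. Cebpg, the dimer partner, stood at 59202 ± 19014 CPM with both mRNAs and 46.1 ± 5.69 CPM with GFP mRNA. Against GFP mRNA 3 members rose, where 12.4% of all genes rose, and 6 fell, where 12.2% fell. Stard4 had 62.6, 62.1, 63.5 and 61.7 CPM with both mRNAs, against 31.3, 21.7, 32.5 and 23.4 CPM with GFP mRNA. The 4 libraries with both mRNAs were nearly equal and far above the others, with a log2 fold change of 1.22 ± 0.12 at an adjusted p of 1.27e-05. Fads1 at 0.30 ± 0.09 and Lpin1 at 0.25 ± 0.08 were the other members that rose, with adjusted p of 0.0327 and 0.0307.

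Of the 6 that fell, Ebp, the sterol isomerase, had 29.9, 35.4, 37.1 and 28.0 CPM with both mRNAs, against 47.1, 56.6, 48.3 and 47.9 CPM with GFP mRNA, with a log2 fold change of -0.59 ± 0.12 at an adjusted p of 0.00322. Insig1 had 98.1, 81.2, 102 and 92.7 CPM with both mRNAs, against 150, 131, 158 and 127 CPM with GFP mRNA, with a log2 fold change of -0.58 ± 0.10 at an adjusted p of 0.000698. In both genes the groups were clearly apart. Scd2 and Hsd17b7, a sterol ketone reductase, each had -0.38, Fdft1 -0.29 and Fasn -0.26 on the log2 scale. Mvd, Srebf1 and Srebf2 did not pass, with log2 fold changes of 0.23 ± 0.13, -0.13 ± 0.18 and -0.07 ± 0.07.

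The smaller calls of this comparison did not hold in every fit with 1 library left out. Fads1 lost its call without any of 6 of the 8 libraries (all but GFP mRNA replicate 3 and the replicate 2 with both mRNAs), Lpin1 without any of 5 (GFP mRNA replicates 1, 2 and 3, and replicates 2 and 4 with both mRNAs) and Fdft1 without any of 6 (GFP mRNA replicates 2, 3 and 4, and replicates 1, 2 and 4 with both mRNAs). Fasn lost it without GFP mRNA replicate 2 or replicate 2, 3 or 4 with both mRNAs, Scd2 without replicate 2 with both mRNAs and Hsd17b7 without GFP mRNA replicate 3. The highest adjusted p among these was 0.140. With the replicate block, which pairs these libraries, Hmgcs1 was also lower. Summed neuronal markers were 9446 to 10312 CPM with both mRNAs and 10778 to 12158 CPM with GFP mRNA, and satellite glia markers 421 to 599 CPM with both mRNAs and 604 to 676 CPM with GFP mRNA. By the test, whose TMM scaling differs from CPM, each of these lists had 1 of 8 tested higher and 1 lower, with median log2 fold changes of 0.03 and -0.01. Endothelial and mural markers were 268 to 347 CPM with both mRNAs and 206 to 278 CPM with GFP mRNA, with 2 of 8 higher and 0 lower, and 2 of 10 Schwann cell and myelin markers tested were higher and 1 lower. The transfected mRNAs are counted in the library total, at 45270 to 86634 CPM for Cebpg, so every other CPM in these libraries is lower by that share. The part of cell makeup was not tested.

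Adding Cebpg mRNA to Atf4 mRNA changed 1 member, where 6.6% of all genes changed. Stard4 had 62.6, 62.1, 63.5 and 61.7 CPM with both mRNAs, against 34.4, 35.1, 35.1 and 32.1 CPM with Atf4 mRNA, with a log2 fold change of 0.93 ± 0.12 at an adjusted p of 0.000433. Insig1 did not pass, at -0.22 ± 0.10 and an adjusted p of 0.225. Mvd, Srebf1 and Srebf2 had log2 fold changes of 0.20, -0.02 and -0.03. With the replicate block, which pairs these libraries, Sqle was also higher and Scd2 lower, and DESeq2 also called Sqle higher. These 3 comparisons share libraries, so their values are set side by side only.

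Several lipid genes outside the members also changed with the mRNAs. Dgat2, which makes triglyceride, had 63.8 CPM with both mRNAs and 16.9 CPM with GFP mRNA, a log2 fold change of 1.95, and Gpam, the first enzyme of glycerolipid synthesis, had one of 1.74. In that list of phospholipid and triglyceride genes 3 of 18 rose and 5 fell with both mRNAs, where 12.4% of all genes rose and 12.2% fell. Vldlr rose by 0.61 with Atf4 mRNA and by 0.43 with both mRNAs on the log2 scale. Npc1, which exports cholesterol from lysosomes, rose by 0.70 with Atf4 mRNA and by 0.42 with both. Both genes belong to the list of sterol uptake, storage and transport. In that list 2 of 13 rose and 0 fell with Atf4 mRNA, where 4.84% of all genes changed in either direction. With both mRNAs 3 of 13 rose and 3 fell.

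Across the 12 groups Insig1, Stard4, Dhcr7 and Fads1 each had an order of their own. Insig1 was lowest in time0, at 86.4 ± 2.75 CPM, followed by both mRNAs at 93.5 ± 9.07 and siAtf3 at 103 ± 10.3 CPM, and highest in siAlyref at 165 ± 6.12 CPM. Stard4 was lowest in siAtf4, at 19.9 ± 3.53 CPM, and highest in time0 and with both mRNAs, which overlapped at 58.5 ± 6.64 and 62.5 ± 0.775 CPM. Fads1 was at 80.5 to 106 CPM as group means except in siAtf3, at 50.3 ± 6.36 CPM. Dhcr7 was highest in time0, at 131 ± 18.3 CPM, and in siAtf3, overlapping it, at 116 ± 6.81 CPM. Levels of the mRNA groups come from a separate table, and that of both mRNAs is lowered by the transfected RNA's share of the total.

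**Figure D4:**
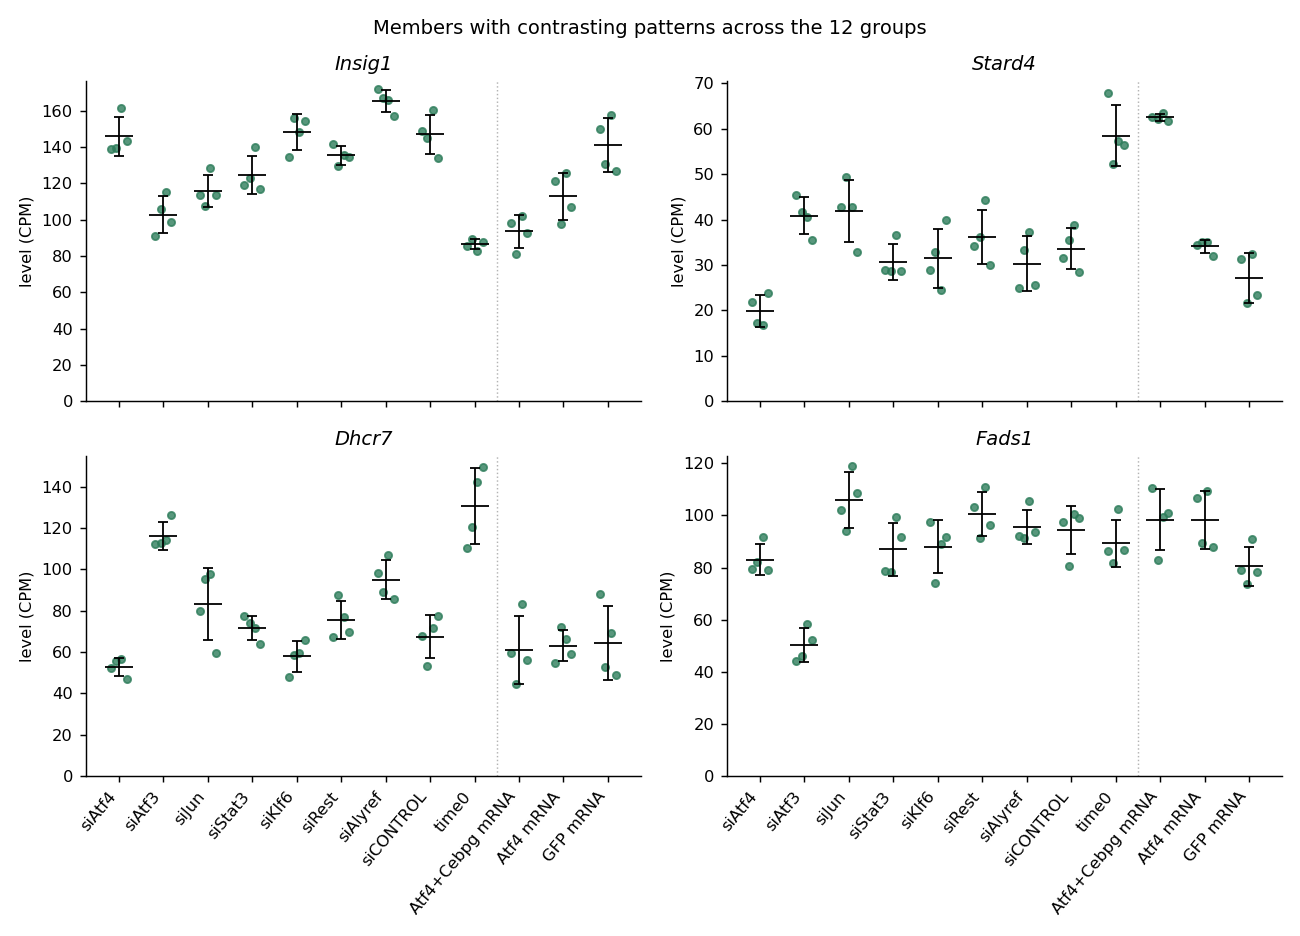
Level in CPM of Insig1, Stard4, Dhcr7 and Fads1 in each library (points) of the 12 groups, with the group mean and SD (bars, n = 4) and a dotted line between the siRNA table and the mRNA table. Stard4 stands at 61.7 to 63.5 CPM with Atf4 and Cebpg mRNA and at 16.8 to 23.9 CPM in siAtf4, and Fads1 is lowest in siAtf3 at 44.4 to 58.3 CPM.

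In culture most members were lower at 42 h than at 0 h. Against time0 23 of 36 members fell in siCONTROL, where 29.2% of all genes fell, and 5 rose, where 28.7% rose. The median log2 fold change was -0.42 over the members, beside 0.01 over all genes tested. The 23 were 12 of 18 sterol enzymes, 3 of 7 regulators and handlers, and 8 of 11 fatty acid and lipid genes, and the summed sterol enzymes were 2326 to 2744 CPM in siCONTROL and 2776 to 3289 CPM in time0. Tm7sf2, a sterol reductase acting after Cyp51, had 30.9, 31.7, 44.2 and 32.7 CPM in siCONTROL, against 102, 103, 123 and 100 CPM in time0, with a log2 fold change of -1.71 ± 0.13 at an adjusted p of 7.11e-07. Elovl6, which lengthens palmitate, had 17.6, 21.0, 29.4 and 25.7 CPM in siCONTROL, against 61.0, 63.1, 69.5 and 64.9 CPM in time0, with a log2 fold change of -1.55 ± 0.14 at an adjusted p of 2.88e-06. Scd1, the desaturase that makes oleate, had 217, 198, 305 and 277 CPM in siCONTROL, against 448, 445, 555 and 542 CPM in time0, with a log2 fold change of -1.10 ± 0.13 at an adjusted p of 3.08e-05. In these 3 genes the groups were widely apart, in a comparison where 23.7% of all genes tested were lower in every siCONTROL library. Dhcr7 at -1.06 and Nsdhl at -0.95 were next, and the other members that fell lay between -0.89 in Stard4 and -0.30 in Fasn.

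The regulators split. Abca1, which exports cholesterol and is a target of the sterol sensor LXR, had 79.0, 68.1, 60.5 and 81.0 CPM in siCONTROL, against 29.0, 26.2, 29.8 and 26.9 CPM in time0, with a log2 fold change of 1.26 ± 0.11 at an adjusted p of 3.21e-06. Insig2, the second Insig gene, had 57.2, 76.2, 91.5 and 89.9 CPM in siCONTROL, against 32.1, 35.2, 36.3 and 54.6 CPM in time0, with a log2 fold change of 0.90 ± 0.18 at an adjusted p of 0.00115. Insig1 had 149, 145, 160 and 134 CPM in siCONTROL, against 85.6, 89.2, 83.0 and 88.0 CPM in time0, with a log2 fold change of 0.67 ± 0.08 at an adjusted p of 1.88e-05. All 3 were higher in every siCONTROL library than in any time0 library, an arrangement found in 30.6% of all genes tested.

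Srebf1 rose by a log2 fold change of 0.51 while Srebf2 fell by 0.52 and Scap by 0.37. Sqle was the 1 sterol enzyme that rose, with 357, 317, 347 and 325 CPM in siCONTROL, against 203, 192, 235 and 225 CPM in time0, and a log2 fold change of 0.56 ± 0.08 at an adjusted p of 0.000108. Cyp51, Msmo1, Hsd17b7, Ebp and Sc5d did not pass, with log2 fold changes from -0.12 to 0.12, nor did Acss2, Fads1 and Acsl3, from -0.11 to -0.02. Srebf1 lost its call without siCONTROL replicate 3 or 4 or time0 replicate 2 or 4 (adjusted p up to 0.0842), and Scap without siCONTROL replicate 1, 2 or 4 or time0 replicate 2 or 4 (up to 0.116).

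Glial markers moved with this comparison. The summed satellite glia markers were 747 to 905 CPM in siCONTROL and 4246 to 5205 CPM in time0, with 7 of 9 lower by the test and 2 higher. The Schwann cell and myelin markers were 1533 to 1800 CPM in siCONTROL and 2556 to 2886 CPM in time0, with 9 of 11 lower, and the neuronal markers 11244 to 13354 CPM in siCONTROL and 14916 to 15922 CPM in time0, with 5 of 8 lower. Their part in the fall of the lipid genes was not tested. Among genes outside the members, SREBP processing had 5 of 8 higher and 0 lower, with Erlin1 at 1.26 and Tmed2 at 1.11 on the log2 scale. Fatty acid oxidation had 3 of 13 higher and 7 lower, with Acaa2 at -1.84 and Cpt1a at -1.36.

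**Figure D5:**
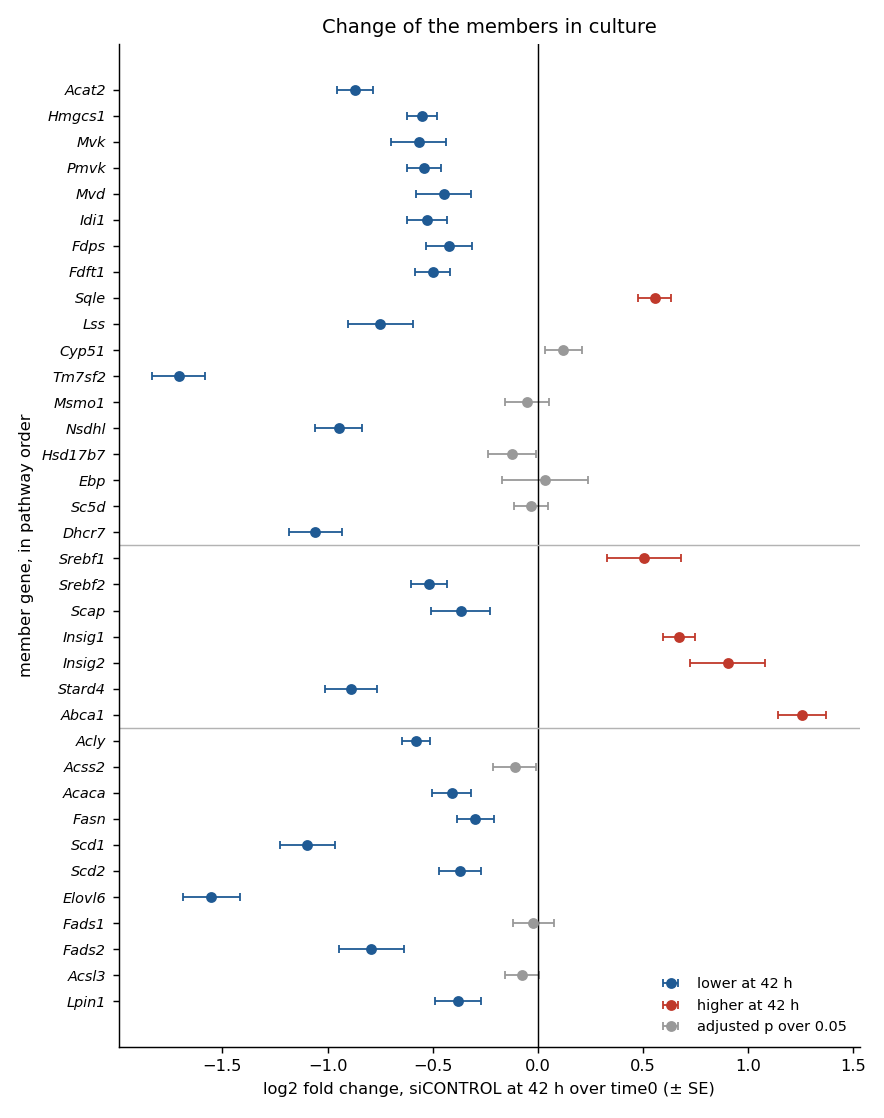
Log2 fold change of each member in siCONTROL at 42 h over time0, with its SE (bars), listed in approximate pathway order and parted by role. Of the 36 members 23 were lower (blue) and 5 higher (red), from -1.71 in Tm7sf2 to 1.26 in Abca1, and 8 did not pass the test (grey).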

How the data were processed

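RNA from 48 libraries of mouse DRG cultures was analysed. The authors deposited estimated counts per gene in 2 tables, for which the submitters' processing notes name kallisto and GRCm39. No program version, gene annotation or scaling step is stated there. In the deposited tables, small values times transcript length were within 5% of the library median for 79.8% to 97.5% of values tested (3003 single-transcript genes of at least 2000 bp were eligible), so the estimated counts are weighted by length. A stranded kit was used per the labels' protocols, but strand use in counting is not given. Symbols were matched for 32470 of 34183 rows (95%) from GENCODE of the earlier build GRCm38. No columns went unused (0), and no 2 columns were identical.

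Counts were rounded. The siRNA libraries (32), the mRNA libraries (12), and siCONTROL with time0 (8) were fitted separately with edgeR 4.0.16 (TMM, filterByExpr, glmQLFit and glmQLFTest) in R 4.3.3, with Benjamini-Hochberg adjustment over 14876, 13857 and 13448 genes and a threshold of 0.05. The SE of a log2 fold change is its size over the square root of F. Alternatives were DESeq2 1.42.0, RLE size factors, no filter, the 2 groups alone, the replicate number as a block, and each library left out. The scripts were tested on simulated data. Tables and figures used python 3.11.15, pandas 2.3.3 and matplotlib 3.10.9.

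Replicate numbers come from the labels, and were taken to pair libraries where same-numbered deviations from the group means correlated above 0.1 in every pair. That held for siJun, siStat3, siRest and siAlyref against siCONTROL (lowest 0.111), siAtf4 against siAtf3 (lowest 0.134), and Atf4 with Cebpg mRNA against each other mRNA group (lowest 0.115).

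Values are given in full for called members, with at most 5 in each direction by fold size, plus Srebf1, Srebf2, Insig1 and Mvd in comparisons of siAtf4 and of the Atf4 mRNAs. From other lists a gene was named only if called and among the 4 largest of its list. The members and lists were chosen with earlier results of these data known. One gene result from the other lists is not reported here.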

Additional observations from a re-analysis of the deposited data

Results flagged for a closer look

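In 21 of 432 sets of a member in a group (4.86%), 1 library stood so far from the other 3 that its gap, as a share of the group's range, exceeded Dixon's critical value. Chance alone marks about 1 in 20 sets. No library held more than 2 of them.

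Among the sterol enzymes, Acat2 was at 154 CPM in replicate 3 with Atf4 mRNA, where the others were at 122 to 126. Mvk was at 58.1 CPM in siAtf3 replicate 4 (others 72.2 to 73.8), and Pmvk at 76.9 CPM in siAtf4 replicate 4 (others 93.9 to 96.3). Idi1 was at 90.0 CPM in siAtf4 replicate 4 (others 68.4 to 70.3) and Lss at 23.2 CPM in siAtf4 replicate 2 (others 14.1 to 15.5). Cyp51 was at 105 CPM in siRest replicate 3 (others 79.4 to 82.4). Tm7sf2 was at 44.2 CPM in siCONTROL replicate 3 (others 30.9 to 32.7) and at 123 CPM in time0 replicate 3 (others 100 to 103). Hsd17b7 was at 53.5 CPM in siAtf4 replicate 2 (others 39.4 to 41.4) and at 26.6 CPM in replicate 2 with Atf4 mRNA (others 29.3 to 29.4). Ebp was at 56.6 CPM in replicate 2 with GFP mRNA (others 47.1 to 48.3). Sc5d was at 135 CPM in siJun replicate 4 (others 127 to 128) and at 102 CPM in siKlf6 replicate 5 (others 113 to 115). Dhcr7 was at 126 CPM in siAtf3 replicate 4 (others 112 to 114).

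Among the other members, Srebf2 was at 157 CPM in siStat3 replicate 3 (others 117 to 120) and Stard4 at 36.5 CPM in the same library (others 28.6 to 28.8). Scap was at 42.6 CPM in replicate 3 with Atf4 and Cebpg mRNA (others 46.6 to 46.7). Fasn was at 155 CPM in siRest replicate 1 (others 136 to 139) and Elovl6 at 25.8 CPM in siAtf3 replicate 1 (others 32.7 to 33.4). Fads1 was at 80.7 CPM in siCONTROL replicate 2 (others 97.6 to 101) and Lpin1 at 71.0 CPM in siKlf6 replicate 2 (others 54.1 to 57.0).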

How the results depend on the processing

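Of the 100 member calls with a test, all 100 kept direction and call with DESeq2, 99 with RLE size factors, 89 without a filter on low counts, 99 with the replicate block and 75 under the least favourable left-out library, and 40 of 52 kept them with the 2 groups alone. None (0) reversed. With the replicate block the counts were 22 lower for siAtf4, 24 lower for siAtf4 against the other knockdowns, 4 lower and 5 higher for siAtf3, 3 higher for siJun, and 2 higher and 1 lower for Atf4 with Cebpg mRNA against Atf4 mRNA. For siAtf4 the block added Fads1, Fasn, Fdft1, Idi1, Pmvk, Scd1, Scd2, Srebf1 and Srebf2 to the 13 called lower without it. For siAtf3 it added Lpin1 and Scd2 to the lower calls, and Acss2, Hsd17b7, Lss and Srebf1 to the higher calls. The numbers were not taken to pair siAtf4, siAtf3 or siKlf6 with siCONTROL, Atf4 mRNA with GFP mRNA, or siCONTROL with time0, where the lowest same-number correlation was 0.0472 to 0.0950 and 3 or 4 libraries correlated best with their own number. With the 2 groups alone there were 2 higher for siAtf3, 0 lower for siStat3, 0 higher for siAlyref and 0 lower for Atf4 mRNA. Without the filter there were 1 higher for siAlyref, 0 higher for siAtf4 against the other knockdowns, 0 lower for Atf4 mRNA and 1 higher for Atf4 with Cebpg mRNA against GFP mRNA. DESeq2 called 2 higher for Atf4 with Cebpg mRNA against Atf4 mRNA. The cause was not tested. Leaving out 1 library gave 10 to 13 lower for siAtf4, 1 to 2 higher for siAtf3 (2 without siCONTROL replicate 3, siAtf3 replicate 1 or siAtf3 replicate 3), 0 to 1 higher for siJun (1 without siJun replicate 4), 1 to 3 lower for siStat3 (3 without siCONTROL replicate 4 or siStat3 replicate 3) and 0 to 2 higher for siAlyref. It gave 0 to 1 higher for siAtf4 against the other knockdowns, 0 to 2 lower for Atf4 mRNA, 1 to 2 higher and 3 to 6 lower for Atf4 with Cebpg mRNA against GFP mRNA, and 1 to 2 higher against Atf4 mRNA (2 without replicate 3 of Atf4 mRNA). At 4 libraries a group and totals from 1539198 counts, a p that misses the threshold does not show that levels were alike.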
